A study of Homo sapiens with 12 samples.

Results

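The cyclin-dependent kinase inhibitor genes CDKN1A, CDKN1B, CDKN1C, CDKN2A, CDKN2B, CDKN2C and CDKN2D, the retinoblastoma gene RB1, and MTAP, the neighbour of CDKN2A and CDKN2B on chromosome 9, were examined for peaks of H3K4me3. The 9 genes were chosen by name, with earlier results of these data known but by no threshold on a measured value, from 20136 protein-coding genes on chromosomes 1 to 22, X and Y of GRCh37. H3K4me3, trimethylation of lysine 4 of histone H3, was profiled by CUT&RUN, in which an antibody directs a nuclease to chromatin and the released fragments are sequenced. The cells were BON1, a cell line from a human pancreatic neuroendocrine tumor, with 500000 cells per condition. Control cells (BON1/TGL/pQ) were set beside cells overexpressing HA-tagged Bcl-xL, a protein that blocks apoptosis (BON1/TGL/HA-Bcl-xL). Both lines carry the TGL label and were grown with puromycin. Each line was profiled with an H3K4me3 antibody and, as background, with a rabbit anti-mouse IgG, and the labels gave 3 replicates for each of these 4 groups. Nothing in the labels says whether replicates were separate cultures, or whether either line was a clone or a pool, so p-values measure only the spread between these libraries. Peak lists of 11 of the 12 samples were used, 3 control and 2 HA-Bcl-xL lists for H3K4me3 (HA-Bcl-xL replicates 2 and 3) and 6 lists for IgG.

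The inhibitors fall into families that act at the same step of the cell cycle. The INK4 proteins, encoded by CDKN2A (p16), CDKN2B (p15), CDKN2C (p18) and CDKN2D (p19), bind CDK4 and CDK6 and keep them from cyclin D. The CIP/KIP proteins, encoded by CDKN1A (p21), CDKN1B (p27) and CDKN1C (p57), bind cyclin-CDK complexes, those of CDK2 among them. Both families hold the RB1 protein in the form that binds E2F transcription factors and restrains entry into S phase. CDKN2A also encodes ARF, a regulator of MDM2, from a start of its own. MTAP encodes a methylthioadenosine phosphorylase of the methionine salvage pathway and is often lost together with CDKN2A and CDKN2B in tumors. H3K4me3 marks the starts of active and poised genes, and at most genes with a CpG island it covers the island.

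The sequences below show the DNA that the results turn on. The first 2 are the bases covered by a peak in all 5 H3K4me3 libraries, next to the start of CDKN2C and inside RB1. The others are 150 bases upstream of the start of CDKN1B, where peaks came and went between libraries, and of CDKN2A, CDKN2B and MTAP, where no peak was called. All are from GRCh37, written 5′ to 3′ on the strand of the gene, with each CG dinucleotide in capitals. The CDKN2A stretch ends 10 bases before the start of its canonical transcript (the annotation's representative transcript, the p16 form), so that it holds no annotated exon.
CDKN2C, chr1:51435784-51435909, plus strand: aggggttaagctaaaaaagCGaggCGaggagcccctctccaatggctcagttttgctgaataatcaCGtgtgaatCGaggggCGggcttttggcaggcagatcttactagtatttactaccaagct
RB1, chr13:48878726-48878770, plus strand: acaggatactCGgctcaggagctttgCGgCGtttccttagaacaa
CDKN1B, chr12:12870152-12870301, plus strand: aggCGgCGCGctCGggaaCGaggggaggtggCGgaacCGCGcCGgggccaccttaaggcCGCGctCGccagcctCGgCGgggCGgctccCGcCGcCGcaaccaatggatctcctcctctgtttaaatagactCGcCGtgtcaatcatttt
CDKN2A, chr9:21974866-21975015, minus strand: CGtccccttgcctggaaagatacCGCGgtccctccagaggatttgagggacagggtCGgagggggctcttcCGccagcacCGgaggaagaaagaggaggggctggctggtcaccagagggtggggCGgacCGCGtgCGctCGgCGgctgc
CDKN2B, chr9:22009305-22009454, minus strand: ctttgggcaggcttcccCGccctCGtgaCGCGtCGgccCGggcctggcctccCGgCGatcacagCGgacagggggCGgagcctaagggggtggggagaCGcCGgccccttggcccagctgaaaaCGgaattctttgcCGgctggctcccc
MTAP, chr9:21802485-21802634, plus strand: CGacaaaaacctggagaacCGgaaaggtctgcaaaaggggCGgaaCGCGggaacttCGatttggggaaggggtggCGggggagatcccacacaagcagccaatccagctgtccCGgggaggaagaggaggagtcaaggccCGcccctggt
The CDKN2C core held 5 CG dinucleotides in 126 bases, and the RB1 core 3 in 45. The 150-base stretches held 20 (CDKN1B), 12 (CDKN2A), 14 (CDKN2B) and 9 (MTAP). The unmarked CDKN2A, CDKN2B and MTAP stretches thus had more CG dinucleotides than the CDKN2C core that was marked in every H3K4me3 library, in stretches 24 bases longer.

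The 5 H3K4me3 lists held 10247 to 17711 peaks on these chromosomes, the control IgG lists 1674 to 2113 and the HA-Bcl-xL IgG lists 244 to 268. The lists give no read totals, so the absolute depth is not known, and a gene without a peak may have had a signal that was not detectable at this depth. The fragments at each summit were solved from the deposited fold and -log10 p, and had a median of 9 to 12 per list for H3K4me3 and 3 to 5 for IgG. A window of 2.5 kb on either side of the gene's most 5′ annotated position (its 5′ end) held a peak at 33.0 to 45.8% of all protein-coding genes in H3K4me3 libraries and 0.0397 to 0.492% in IgG libraries. As a check of the labelled cell type, 5 of 10 neuroendocrine marker genes (CHGB, INSM1, SCG2, SCG3 and NEUROD1) had a peak there in all 5 H3K4me3 libraries, and ISL1 had none. CHGA, which encodes chromogranin A, had a peak in 1 library, SYP in 2, ENO2 in 1 and PCSK1 in 3. Of 5 blood cell markers none had a peak, and of 5 fibroblast markers only COL1A1 had one, in 1 library. Over all protein-coding genes, 25.6% had a peak there in all 5 H3K4me3 libraries and 46.5% in none, so few unmarked markers say little about other cells.

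A gene is called marked where a peak was called in the window named. Of the 9 genes, CDKN2C and RB1 had a peak in this window in all 5 H3K4me3 libraries, CDKN2D had one in 1 library, and the other 6 had none. Control libraries had 2, 2 and 2 of the 9 genes with a peak, and HA-Bcl-xL libraries 2 and 3. None of the 9 had an IgG peak in that window. Over all protein-coding genes, 25.2% had a peak in all 5 H3K4me3 libraries and in no IgG library, 6.54% in exactly 1 H3K4me3 library, and 46.5% in no H3K4me3 library. The 9 genes' shares, 2 of 9 in all 5 libraries and 6 of 9 in none, are counts of few genes and are given as a description. When the window was drawn around the start of any annotated transcript, CDKN1B had a peak in all 5 H3K4me3 libraries too and CDKN1A in 1, so that 3, 3 and 3 genes were marked in control libraries and 3 and 5 in HA-Bcl-xL libraries. CDKN1C, CDKN2A, CDKN2B and MTAP had no peak within 2.5 kb of any start. By that rule 27.3% of all genes had a peak in all 5 H3K4me3 libraries and no IgG library, 7.25% in exactly 1 H3K4me3 library, and 39.7% in none of the 11 lists.

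**Figure D1:**
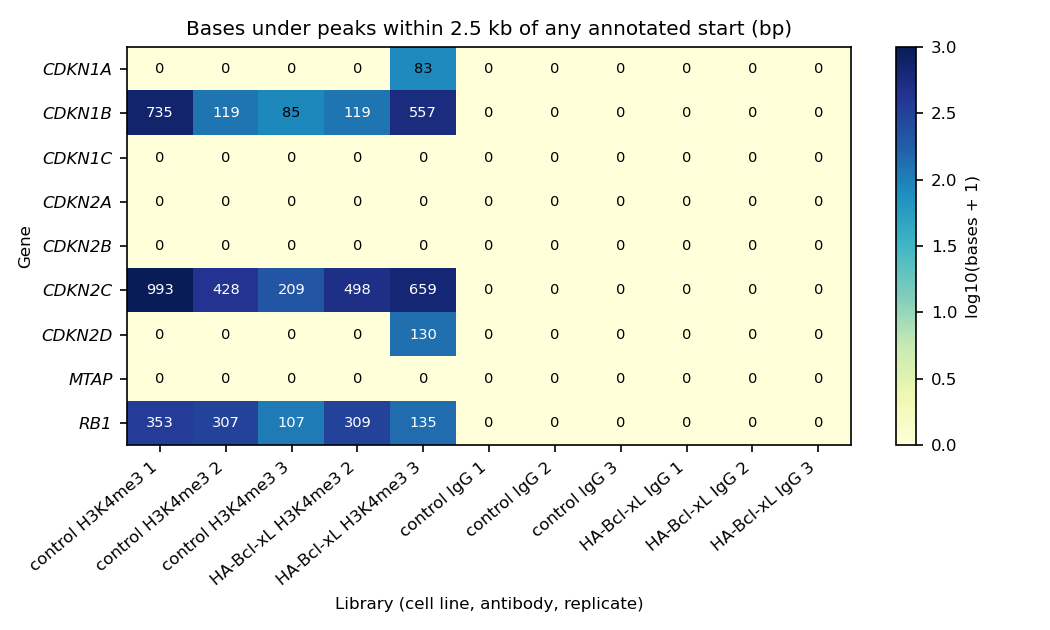
Bases under peaks (bp, printed in each cell and coloured on a log10 scale) within 2.5 kb of any annotated start of the 9 genes (rows) in the 11 libraries (columns). CDKN1B, CDKN2C and RB1 are marked in all 5 H3K4me3 libraries, CDKN1A and CDKN2D only in HA-Bcl-xL replicate 3, and the other 4 genes and all IgG columns are at 0.

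CDKN2C, which encodes the INK4 protein p18, was marked at the start of its canonical transcript in every H3K4me3 library. The gene lies on the plus strand at chr1:51426417-51440306, and its canonical transcript starts at 51435917, 9500 bp downstream of its most 5′ annotated end. A peak covered bases next to that start at 51435705-51435956, 51435704-51435956 and 51435784-51435909 in the control replicates, in order of their number, and at 51435638-51435956 (HA-Bcl-xL replicate 2) and 51435646-51435942 (replicate 3). In control replicate 3 the peak ended 8 bp before the start, and in the other 4 libraries it ran 25 to 39 bp past it. The summits held 30, 31 and 19 fragments (control) against 33 and 32 (HA-Bcl-xL). By -log10 p these peaks stood at the 88.1, 95.1 and 80.1 percentile of their own lists (control) and at the 94.5 and 93.3 percentile (HA-Bcl-xL). Only the control replicate 3 peak had fewer than 30 fragments, and that list had the lowest background floor of the 5.

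Within 1 kb of the canonical start, a window chosen after the data were seen, peaks covered 252, 253 and 126 bp (control) against 319 and 387 bp (HA-Bcl-xL). Both HA-Bcl-xL values were above all 3 control values in that window only. Within 2.5 kb of the same start the values were 537, 253 and 126 bp (control) against 319 and 387 bp (HA-Bcl-xL), and within 10 kb 711, 523 and 303 bp against 633 and 841 bp, and the lines overlapped in both. No test was run on these windows. Within 1 kb of any start of the gene, also a window added later, the limma log2 difference (HA-Bcl-xL minus control) was 0.41 (SE 0.40, adjusted p 1.00 with limma). A further peak lay in the first intron in control replicate 1 (19 fragments) and HA-Bcl-xL replicate 3 (19 fragments), and every library had at least 1 peak 7193 to 8789 bp downstream of the canonical start, beyond the end of the transcript.

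The window around the most 5′ end of CDKN2C gave another set of peaks. They covered 456, 175 and 83 bp (control) against 179 and 272 bp (HA-Bcl-xL), with both HA-Bcl-xL values between the lowest and highest control value. These peaks lay 0 to 308 bp from an annotated start of FAF1, a gene that encodes a Fas-associated factor, and cannot be assigned to either gene. FAF1 was for that reason also the gene with the most similar pattern over the 5 libraries (Euclidean distance 0 on the centred log2 scale, against a median of 1.71 over 9447 genes). The log2 difference in bases under peaks between HA-Bcl-xL and control was -0.05 (SE 0.41, adjusted p 1.00 with limma) in this window and 0.12 (SE 0.42, adjusted p 1.00 with limma) over all starts.

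**Figure D2:**
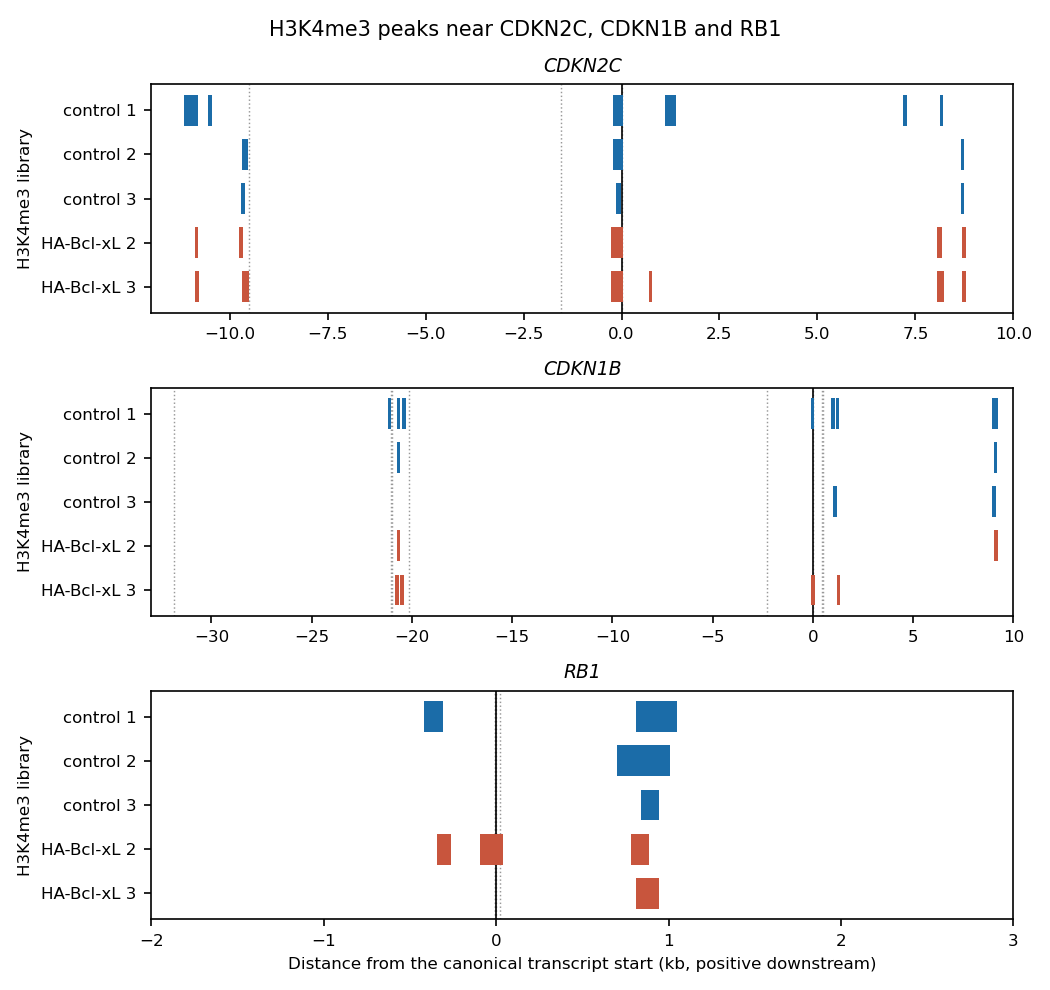
Peaks of the 5 H3K4me3 libraries (rows; control blue, HA-Bcl-xL red) by distance in kb from the canonical start (solid line) of CDKN2C, CDKN1B and RB1, with the other annotated starts of the gene dotted. The narrowest bars are widened to be visible. At CDKN2C a peak lies at the start in all 5 libraries, at CDKN1B in 2, and at RB1 the recurrent peak lies downstream of the start.

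CDKN2D, which encodes the INK4 protein p19 and lies on the minus strand at chr19:10677136-10679735, had a peak in HA-Bcl-xL replicate 3 only. It covered 10679061-10679190, 130 bp in the first intron, with 9 fragments at the summit, and stood at the 20.8 percentile of its list. The bases within 2.5 kb of the 5′ end were 0, 0 and 0 (control) against 0 and 130 (HA-Bcl-xL), so the lines overlapped at 0. The gene had too few libraries with a peak for the comparison between the lines.

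CDKN1B, which encodes p27, was marked at 3 separate places, none of them within 10 kb of its most 5′ annotated end at 12838432. The gene lies on the plus strand at chr12:12838432-12875303, and the canonical transcript starts at 12870302, 31870 bp further downstream. Over the canonical start itself, a peak was called in control replicate 1 (12870206-12870340, 21 fragments, 81.1 percentile) and in HA-Bcl-xL replicate 3 (12870256-12870342, 28 fragments, 95.7 percentile). No other library had a peak over that start, so 1 library of each line had one. Weaker peaks lay 969 to 1341 bp downstream, in the first intron, in control replicates 1 and 3 and HA-Bcl-xL replicate 3, with 9 to 13 fragments. The 2.5 kb around the canonical start held 387, 0 and 85 bp under peaks (control) against 0 and 201 bp (HA-Bcl-xL). The groups overlapped, and 1 library of each line was at 0.

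A second place lay upstream, at -21168 to -20331 bp from the canonical start of CDKN1B, next to other annotated starts of the gene. Control replicates 1 and 2 and both HA-Bcl-xL libraries had peaks there, with up to 17, 16, 14 and 12 fragments. They lay 0 to 716 bp from a start of GPR19, a gene for an orphan receptor, and the reads cannot be assigned to either gene. The third place lay 8919 to 9257 bp downstream of the canonical start, within 261 to 394 bp of a start of APOLD1, and was marked in all 4 libraries other than HA-Bcl-xL replicate 3. Over all annotated starts of CDKN1B the bases under peaks were 735, 119 and 85 (control) against 119 and 557 (HA-Bcl-xL). Control replicate 1 and HA-Bcl-xL replicate 3 were high, and the other 3 libraries low. Control replicate 1 had the longest of the 5 lists (17711 peaks), while HA-Bcl-xL replicate 3 had a shorter list than HA-Bcl-xL replicate 2 (15497 against 16379 peaks), and the part of list length in this pattern was not tested. The log2 difference was 0.09 (SE 0.58, adjusted p 1.00 with limma), the largest error of the 3 genes tested over all starts.

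CDKN1A, which encodes p21, had 1 peak, in HA-Bcl-xL replicate 3. The gene lies on the plus strand at chr6:36644237-36655114 with its canonical start at 36646491. The peak covered 36647253-36647335, 762 to 844 bp downstream of that start in the first intron, with 6 fragments and at the 14.9 percentile of its list. The bases over all starts were 0, 0 and 0 (control) against 0 and 83 (HA-Bcl-xL).

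CDKN1C, which encodes p57 and is an imprinted gene, had no peak within 2.5 kb of any start in any list. It lies on the minus strand at chr11:2904443-2907005. The nearest peaks lay upstream, at -6970 to -6894 bp from the start in HA-Bcl-xL replicate 2 and at -9069 to -8960 bp in control IgG replicate 2, each with 3 fragments at the summit. The H3K4me3 peak was thus no higher in fragments than the IgG peak.

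RB1 was marked downstream of its start in every H3K4me3 library. The gene lies on the plus strand at chr13:48877880-49173572. A peak in the first intron covered 48878698-48878936, 48878590-48878896 and 48878726-48878832 in the control replicates, in order of their number, and 48878671-48878770 (HA-Bcl-xL replicate 2) and 48878696-48878830 (replicate 3). These peaks began 703 to 839 bp past the canonical start, held 8, 10 and 8 fragments (control) against 9 and 10 (HA-Bcl-xL), and stood between the 15.7 and 56.1 percentile of their lists. They were weaker in fragments than the CDKN2C peak of the same library, in all 5 libraries. Control replicate 1 had a further peak upstream, at -421 to -308 bp from the start, and HA-Bcl-xL replicate 2 had 2 more, of which 48877796-48877924 covered the start. These upstream peaks lay 0 to 46 bp from a start of the divergent noncoding gene RB1-DT.

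The bases under peaks within 2.5 kb of the 5′ end of RB1 were 353, 307 and 107 (control) against 309 and 135 (HA-Bcl-xL). Both HA-Bcl-xL values fell between the lowest and the highest control library. The log2 difference was -0.25 (SE 0.41, adjusted p 1.00 with limma). The gene with the most similar pattern was ZNF487, at 336, 292 and 97 bp (control) against 293 and 124 bp (HA-Bcl-xL) (Euclidean distance 0.138 over the 5 libraries, against a median of 1.70). Further inside the gene, in intron 17, all 5 libraries had peaks between 48985333 and 48987193, with up to 28, 14 and 20 fragments (control) against 20 and 23 (HA-Bcl-xL), at 0 to 1113 bp from annotated starts of LPAR6, a receptor gene nested in RB1. The nested start was thus marked with more fragments than the RB1 start in every library.

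For the comparison between the lines, bases under peaks were tested at the 9447 protein-coding genes marked within 2.5 kb of the 5′ end by at least 2 H3K4me3 libraries. CDKN2C and RB1 were the 2 members tested, and neither passed. Over all these genes 0 passed an adjusted p of 0.05 with limma (0% called), 538 had an unadjusted p below 0.05, and the smallest adjusted p was 0.818. Over any start, where CDKN1B was the third member tested, 0 of 10438 genes passed with limma (557 at an unadjusted p below 0.05). By presence alone, 0 of the 9 genes had a peak in all control and no HA-Bcl-xL library, as had 0.248% of all genes, and 0 were marked in both HA-Bcl-xL libraries but no control library, as had 0.824%.

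The IgG lists held no peak within 2.5 kb of any start of the 9 genes, so the comparison of antibodies was with 0. At CDKN2C the mean was 233 bp in H3K4me3 libraries, and at RB1 it was 242 bp. Both had an adjusted p of 0.0106 in the exact permutation test, two-sided, with antibody labels permuted within each line, from a p of 0.005, the smallest the 200 splits can give. A gene enters this test by a peak in any list, and one with a peak in all 5 H3K4me3 and no IgG library has to reach that smallest p, so these values restate the presence of the peaks and add no support to it. Of 10890 genes in the test, 64.2% passed in the same direction. Over all starts the same holds for CDKN1B (323 bp, adjusted p 0.0106, exact permutation test), where 64% of 12134 genes passed.

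The base composition around the canonical start did not order the 9 genes by their marks. In the 1 kb around it, CDKN2C had the lowest GC content of the 9, 48.7%, with an observed to expected ratio of CG dinucleotides of 0.625. The other 8 genes had 60.4 to 74.2% GC and ratios of 0.780 to 0.959, and all 8 were CpG-rich (at least 50% GC and a ratio of at least 0.6). Of 12917 protein-coding genes with a CpG-rich canonical start, 76.2% had a peak within 2.5 kb of it in at least 1 H3K4me3 library and 36.9% in all 5. Of the 6938 other genes, 19.3% had one in at least 1 library and 8.17% in all 5. Among genes in the same decile of GC content as CDKN2C, 16.2% were marked in all 5 libraries. For the unmarked genes, 67.4% of genes in the GC decile of MTAP, 68.3% in that of CDKN2A and CDKN2B and 63.0% in that of CDKN1C had a peak in at least 1 library. CDKN2A, CDKN2B, MTAP and CDKN1C were thus among the smaller share of CpG-rich starts, 23.8%, without a peak in any H3K4me3 library.

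**Figure D3:**
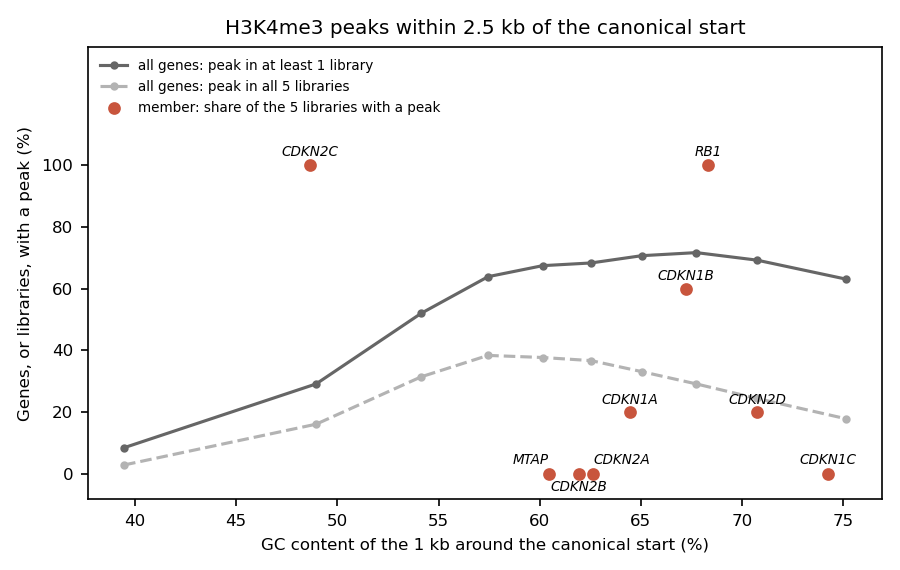
Percentage of all protein-coding genes with a peak within 2.5 kb of the canonical start (lines, by decile of GC content, plotted at the median GC of the decile) and, for the 9 genes (points), the percentage of the 5 H3K4me3 libraries with a peak, against the GC content of the 1 kb around that start. CDKN2C is marked in every library at 48.7% GC, and MTAP, CDKN2A, CDKN2B and CDKN1C are at 0 between 60.4 and 74.2% GC.

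MTAP, CDKN2A and CDKN2B had no peak in any of the 11 lists, at any window up to 10 kb and around any of their starts. Within 10 kb of the 5′ end, 37.8% of all protein-coding genes had none. MTAP lies on the plus strand at chr9:21802635-21937650, CDKN2A on the minus strand at chr9:21967751-21995300 and CDKN2B on the minus strand at chr9:22002902-22009304. The whole stretch from the 5′ end of MTAP to the 5′ end of CDKN2B, 207 kb at chr9:21802635-22009304, held 0 peaks in each list, whether H3K4me3 or IgG. So did the 250 kb on either side. The 1 Mb flanks held 0 peaks on the telomere side and 1 on the centromere side, and the 5 Mb flanks 42 and 38, or 8.40 and 7.60 per Mb. Chromosome 9 as a whole had 22.1 peaks per Mb of known sequence over the 11 lists, a density that corresponds to 4.57 peaks in a stretch of this length. Both 5 Mb flanks, which include the 1 Mb flanks, were below that density, so 4.57 is not a local expectation. A place with a peak in several lists is counted in it once per list. Lists of peaks do not record reads between peaks. A segment missing from the cells and a segment that is present without a called peak therefore cannot be told apart by a count of 0.

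A run of 2201 kb without a peak in any list, chr9:20786701-22987809, surrounded the 3 genes. Its telomere end was an IgG peak of control replicate 3, and its centromere end an H3K4me3 peak of HA-Bcl-xL replicate 2 at the 7.83 percentile of its list. The run held 22 protein-coding 5′ ends. Of these 6 were CpG-rich by the composition of the 1 kb around them, HACD4, KLHL9, MTAP, CDKN2A, CDKN2B and DMRTA1, and the other 16 were type I interferon genes with low CG content. HACD4 encodes an enzyme of fatty acid elongation, KLHL9 a ubiquitin ligase adaptor and DMRTA1 a DM-domain transcription factor. In the control lists alone the run was 2661 kb, and in the HA-Bcl-xL lists alone 2206 kb, so both lines lacked peaks over the same stretch. With only peaks of a -log10 q of at least 5 it was 3141 kb.

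Long peak-free runs were common, but few held such genes. There were 88 autosomal runs of at least 1 Mb without undetermined bases. The run around CDKN2A was the fourth longest of these, and it held the most protein-coding 5′ ends (22, against 18 in the next) and the most CpG-rich ones (6, against 5 in the next). The median run held 1 protein-coding 5′ end and 0 CpG-rich ones. Other long runs also lay on chromosome 9. The longest of the 88, chr9:29721418-32384906, held 1 protein-coding 5′ end, which was CpG-rich. The run next in length below the CDKN2A run, chr9:16398076-18424449, held 4, all CpG-rich. Another, chr9:23826338-25195666, lay on the centromere side of the CDKN2A run and held 1 that was not CpG-rich. When the autosomes were divided into windows as long as the MTAP to CDKN2B stretch, 3315 of 12735 had no peak in any list. Of 2530 windows with at least 3 protein-coding 5′ ends, 4.78% had none, and of 1338 with at least 3 CpG-rich 5′ ends, 0.523% had none (7 windows). A peak-free stretch of this length is thus ordinary by length and, against these windows, uncommon by the genes it holds. The windows include those with more than 3 such ends and come from all autosomes. They were not matched to the stretch by number of ends or by local peak density. These shares describe the lists and are not a test.

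**Figure D4:**
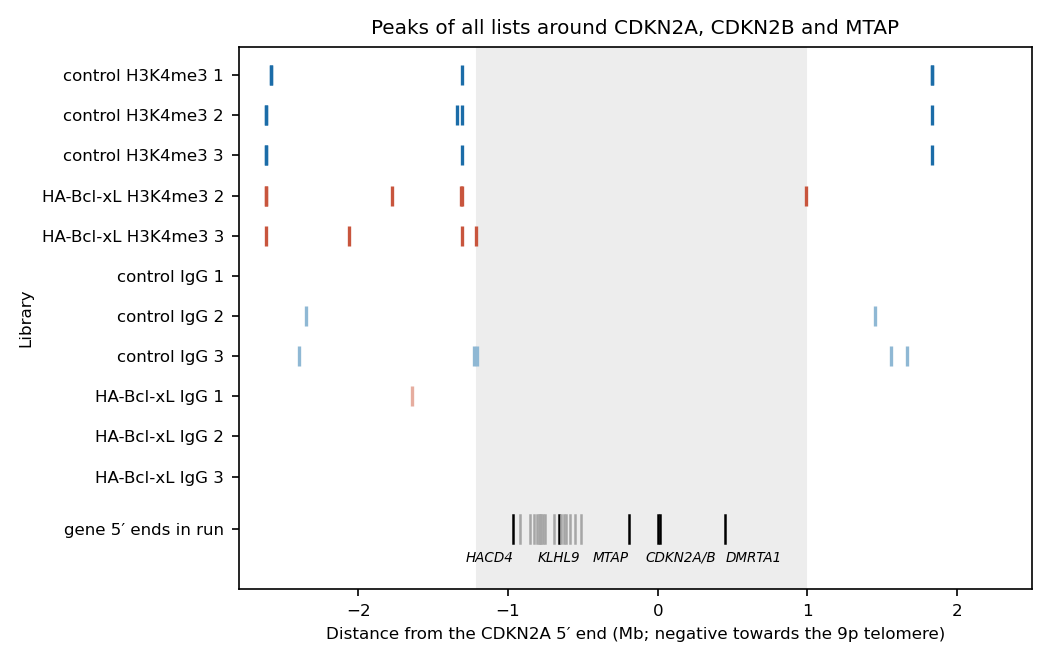
Positions of peaks of the 11 lists (rows) by distance in Mb from the CDKN2A 5′ end, with the run without any peak shaded and, in the bottom row, protein-coding 5′ ends inside the run (CpG-rich black, others grey). No tick falls in the shaded 2201 kb, while H3K4me3 libraries of both lines have peaks about -1.31 Mb away, and control H3K4me3 libraries alone about 1.83 Mb away.

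**Figure D5:**
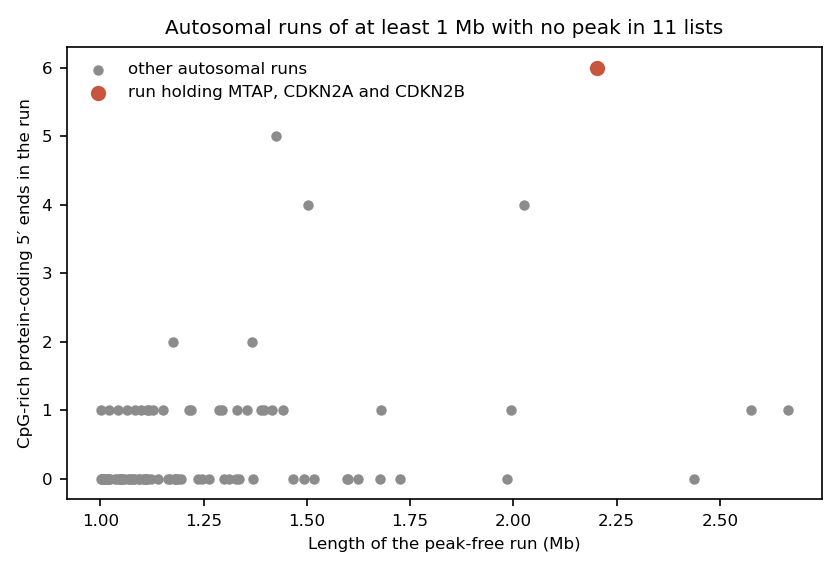
Length in Mb of each autosomal run of at least 1 Mb without a peak in the 11 lists and without undetermined bases, against the number of CpG-rich protein-coding 5′ ends in it. The run with MTAP, CDKN2A and CDKN2B (red) is 2201 kb long with 6 such ends, and the next highest has 5.

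Of 19 genes listed for the region, 15 were unmarked. Of the 17 that are protein-coding 13 were, where 46.5% of all protein-coding genes were. The run itself holds 8 of these 15, among them the noncoding genes CDKN2B-AS1 and MIR31HG, so the count in part restates the run. MLLT3 on the telomere side and IZUMO3 and TUSC1 on the centromere side, all outside the run, were among these. On the telomere side, FOCAD had no peak within 2.5 kb of its 5′ end but had peaks near another of its starts in all 5 H3K4me3 libraries, 14 to 410 bp from a start of its antisense gene FOCAD-AS1. On the centromere side, CAAP1, PLAA and IFT74 had a peak in all 5 libraries, and CAAP1, with its 5′ end at 26892801, was the listed gene nearest to the run there that was marked in HA-Bcl-xL libraries. The 5′ ends of PLAA and IFT74 lie at 26947240 and 26947037, so their windows overlap. Their peaks cannot be assigned to either gene and are not separate marks. ELAVL2, which encodes a neuronal RNA-binding protein, had a peak in all 3 control and neither HA-Bcl-xL library. Its log2 difference was -1.76 (SE 0.38, unadjusted p 0.000757, adjusted p 0.818 with limma), which did not pass.

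Of 23 genes that act with the 9 in the RB-E2F pathway, 18 were marked within 2.5 kb of the 5′ end by at least 1 H3K4me3 library, against 53.5% of all genes. Of the 23, 5 (21.7%, against 25.6% of all genes) were marked there by all 5 H3K4me3 libraries: E2F8, a repressive E2F, the cyclin gene CCND3, the kinase gene CDK2, the phosphatase gene CDKN3, and SKP2, which encodes the ubiquitin ligase subunit that targets p27. A further 5 (21.7%, against 46.5% of all genes) had none, namely the E2F partner genes TFDP1 and TFDP2, the cyclin genes CCND2 and CCNE1, and CDK4. TFDP2 and CDK4 were marked at another start in all 5 libraries. CCND1 and E2F6 were marked in both HA-Bcl-xL libraries but no control library, as had 0.824% of all genes. In the other direction, 0 of the 23 were marked in all control and no HA-Bcl-xL library, as had 0.248% of all genes. The list was read for counts only: of its 18 genes tested between the lines, 0 passed with limma in either direction, and the median log2 difference was 0.41, against -0.01 over all genes. CCND1 had a log2 difference of 1.04 (SE 0.40, adjusted p 0.857 with limma). None of the 23 had an IgG peak in that window.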

How the data were processed

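CUT&RUN peak lists of 11 libraries, in 4 groups taken from the labels, were analysed. The H3K4me3 library of HA-Bcl-xL replicate 1 was not analysed here. The submitters' processing notes name bcl2fastq 2.20, Trimmomatic 0.36, Bowtie2 2.2.9, MACS2 2.1.1, deepTools 3.5.1 and the build hg19 (GRCh37), with no role or order; duplicate handling is not given in the sources used here. Each list was deposited per library. The deposited score, the fold enrichment over background and the −log10 p and −log10 q of each peak are the authors' own values, used only to describe, rank or filter peaks within a list. No peak had a q-value above 0.01. Fragments at a summit were solved from the deposited fold and −log10 p as a whole number, assuming a Poisson tail, and fitted to 0.001 for 95.9 to 99.97% of peaks per list. Whether they are fragments or single reads is not recorded, and they carry PCR copies.

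Gene starts came from GENCODE release 44 lifted to GRCh37, and coordinates are 1-based. Bases under merged peaks were summed within 2.5 kb of the most 5′ end of each gene. The lines were compared with limma 3.58.1 (R 4.3.3) on log2(bases + 100), each library centred on its median, for genes with a peak in at least 2 H3K4me3 libraries. A log2 difference on this scale understates changes at low values. Antibodies were compared by exact permutation within lines. Both had Benjamini-Hochberg adjustment over all genes tested, and both were tested on simulated data. Python 3.11.15, numpy 2.4.6, pandas 2.3.3, scipy 1.17.1 and matplotlib 3.10.9 were used.

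The rule for names took all 9 genes and the listed RB-E2F genes that passed a test or were marked by every H3K4me3 library or none. It also took the listed 9p21 neighbours and, for each member marked in all H3K4me3 libraries, the gene with the nearest pattern. Not all of these were named in the results. CCNE2, E2F7, MDM2, RBL1 and RBL2 passed the antibody test and were counted, but were not named as genes of that list. The unmarked neighbours SLC24A2, IFNB1, IFNA1, IFNE, LRRC19 and TEK were likewise counted but not named. CCND1, E2F6 and genes with starts next to members' peaks were named after their values were seen. A further gene of the RB-E2F list is not reported here and is in none of that list's counts. The members and lists were chosen with earlier results of these data known. Windows around canonical starts, and 1 kb around any start, were added after seeing the data. Alternatives were other windows, pseudocounts of 10 and 500, other filters and centring, only peaks reaching a −log10 q of 5, lists cut to equal length, removal of peaks overlapping IgG peaks, the replicate number as a block, and each library left out in turn.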

Additional observations from a re-analysis of the deposited data

How the results depend on the processing

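Of 167 recomputed values, 141 kept their direction and their side of the threshold or stayed close to the reported value. The 0 genes differing between the lines held under every alternative run. So did the 0 peaks in the MTAP to CDKN2B stretch, and the run without peaks stayed between 2201 and 3141 kb. Apart from the extension to the end of CDKN2B-AS1, the alternatives for the stretch and the run only take peaks away. They could add no peak to the stretch and could not shorten the run, so they give no support to either. The 15 stretch values and 13 run values are among the 141. The count of genes marked in all control and no HA-Bcl-xL library rose from 50 to 99 with equal list lengths, and to between 76 and 274 when 1 library was left out. The count marked in HA-Bcl-xL libraries only rose from 166 to between 214 and 601 when 1 library was left out; with fewer libraries the rule is easier to meet. With HA-Bcl-xL replicate 2 left out, 1 member (CDKN2D) fell under that rule. The mean number of members with a peak in control libraries was 1.67 with equal list lengths and 3 over any start, and in HA-Bcl-xL libraries 3.5 within 10 kb and 4 over any start.

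The direction of the small differences at CDKN2C and RB1 was not stable. At CDKN2C the log2 difference of -0.05 became 0.15 within 1 kb, 0.18 within 10 kb, 0.12 over any start, 0.0087 for genes with a peak in all libraries and 0.086 without centring. It moved furthest the other way, to -0.50 with only peaks reaching a -log10 q of 5 and -0.43 with equal list lengths, and lay between -0.30 and 0.20 when 1 library was left out. Without centring the median over all genes moved to 0.12. At RB1 the difference of -0.25 became 0.048 with equal list lengths, and lay between -0.61 and 0.11 when 1 library was left out; with an HA-Bcl-xL library left out only 1 remains, assumed to vary like the controls. The cause of these changes was not tested. Whether replicate numbers pair the H3K4me3 libraries of the lines is not settled. Deviations of same-numbered control and HA-Bcl-xL libraries correlated at 0.0164 (replicate 2) and 0.0311 (replicate 3). The 2 HA-Bcl-xL libraries deviate from their mean in exactly opposite ways, so these values are not separate checks. Whether replicate numbers pair H3K4me3 with IgG libraries of a line was not tested. With the replicate block, CDKN2C was at 0.19 on the log2 scale, 0 genes differed between the lines with limma (514 at an unadjusted p below 0.05), and 0 genes differed between antibodies, with CDKN2C and RB1 at an adjusted p of 0.132 in the exact permutation test; its 32 label flips cannot give a p below 0.0625. With any library left out, 5082 to 6154 genes were called between antibodies.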
